A study of Mus musculus with 15 samples.

Results

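Knockdown of the endoplasmic reticulum (ER) stress sensor IRE1a was examined in mouse hepatocytes that had been given glucagon, in 6 of the series' 15 expression arrays. The 6 were chosen by their labels alone: 3 arrays labelled as IRE1a knockdown with glucagon and 3 labelled as control knockdown with glucagon. All 6 samples were primary hepatocytes of C57BL/6 mice, and the labels name no genetic change other than the knockdown. The control group received an adenovirus with a control hairpin, Ad-shCON. The knockdown group received an adenovirus with 1 hairpin against IRE1a, Ad-shIRE1a#2. Both groups were infected for 72 hours and were then given glucagon for 4 hours before total RNA was taken. Virus and hormone were therefore common to both groups, and no hairpin sample without glucagon was analysed here, so the response to glucagon itself cannot be measured from these arrays. A second hairpin against IRE1a was likewise not analysed here, so a result of lower IRE1a and a result of this hairpin's own sequence cannot be told apart. The other 9 arrays, 3 each for an adenovirus with EGFP, wild-type IRE1a or the S724A form of IRE1a (48 hours, no hormone named in the labels), served to estimate the spread and to compare levels.

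IRE1a, made by the gene Ern1, spans the ER membrane and combines a kinase with an RNA-cutting domain. When unfolded protein accumulates in the ER, it removes a short intron from Xbp1 mRNA, and the protein then made from that mRNA switches on genes for folding, export and degradation of ER proteins. Glucagon is the hormone of fasting: through cyclic AMP, protein kinase A and the transcription factor CREB it raises liver genes for making glucose, such as Pck1 and G6pc. The comparison asks which hepatocyte transcripts differed when IRE1a was lowered while glucagon was present.

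Signals are log2 values, so a difference of 1 is a 2-fold difference. Array medians ran from 5.69 to 5.83 over the 15 arrays, and between 79.0% and 81.4% of probe sets on each array reached a signal of 4. Expression was tested for 16294 genes, each by its brightest probe set. Changes below are IRE1a hairpin minus control hairpin, with the standard error of the fit and a p-value adjusted over all genes tested (limma). Same-numbered control and knockdown arrays moved together, so the value with the replicate number as a block (a paired fit) is given where it changes a call.

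Ern1 was lower in every knockdown array. Its signal, on the brightest of its probe sets, was 8.89, 8.96 and 9.10 in the control arrays and 7.60, 7.44 and 7.51 in the knockdown arrays. The groups lay well apart, with SDs of 0.11 and 0.08. Ern1 fell by 1.47 ± 0.19 (SE, n = 3 per group; 2.76-fold; adjusted p = 0.00293). In bulk samples such as these, fewer cells of a type and less RNA per cell cannot be told apart. Of the 4 other Ern1 probe sets tested, 3 were lower by smaller amounts (-0.58, -0.65 and -0.43) and 1, with a control mean signal of 3.66, was higher by 0.35, and none of the 4 passed. Ern2, the paralogue made in gut epithelium, had a control mean of 4.37 and a difference of -0.17 ± 0.15.

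In all, 38 genes passed at an adjusted p of 0.05: 30 fell, which is 0.184% of the genes tested, and 8 rose, which is 0.0491%. Rises were thus 21.1% of the calls. They were 34.6% after quantile normalisation (18 rises, 34 falls), 13.04% after median centring (3 rises, 20 falls) and 43.5% with the replicate block. The typical difference was small, with a median over all genes of 0.0206 and quartiles of -0.0936 and 0.134. Only 12 of the 38 changed by 2-fold or more. In all 38 the 3 knockdown arrays lay wholly above or below the 3 control arrays, a pattern met by 6.05% of all genes upward and 5.49% downward. With the replicate block, 87 genes rose (0.534%) and 113 fell (0.694%), and these included all 38.

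**Figure D1:**
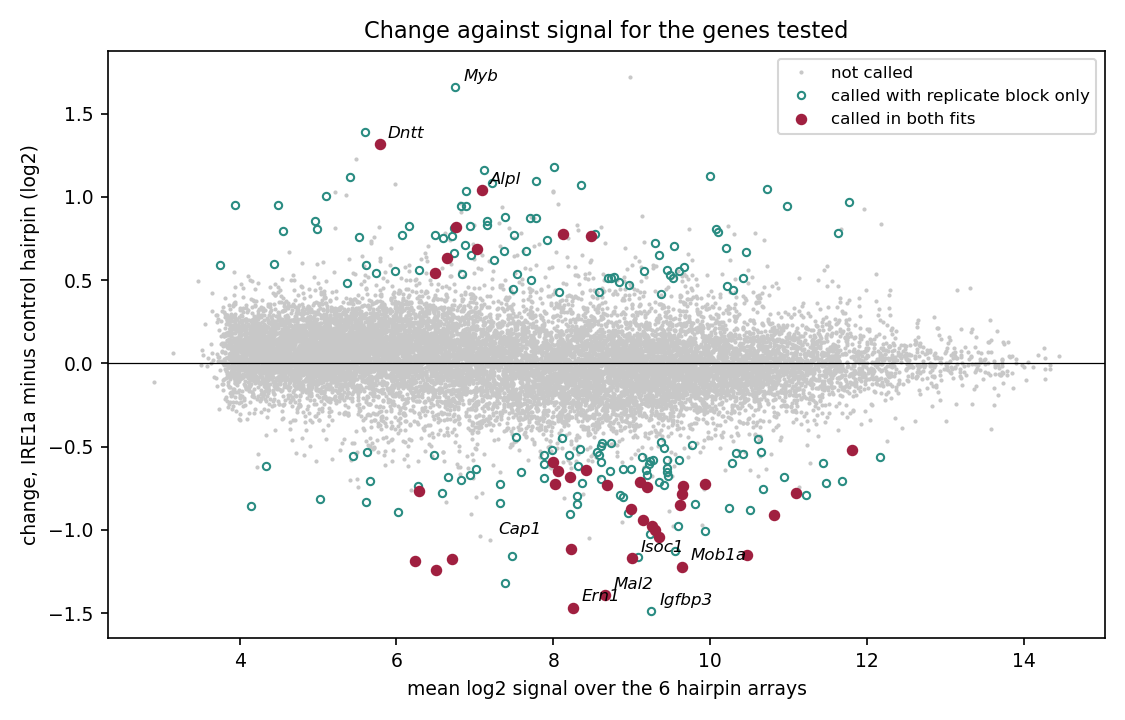
Each point is 1 of the 16294 genes tested: the x axis is its mean log2 signal over the 6 hairpin arrays, the y axis its change in log2 units. Filled points are the 38 genes called in both fits and open points those called with the replicate block only; most filled points lie below 0 (30 of 38), and Myb and Igfbp3 are among the genes called with the block only.

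Mob1a gave the smallest p-value in the whole comparison. MOB1A is the co-activator of the LATS and NDR kinases in the Hippo pathway, which restrains growth by keeping the co-activators YAP and TAZ out of the nucleus. Its signal was 10.260, 10.264 and 10.235 in the control arrays and 8.996, 9.083 and 9.022 in the knockdown arrays. Within each group the 3 values were nearly equal, and the gap between the groups was many times their spread. Mob1a fell by 1.22 ± 0.08 (2.33-fold; adjusted p = 6.32e-06). The 2 other Mob1a probe sets, which are separate measurements of the same transcript, fell by 1.14 and 1.16.

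Mob1a was the sole gene of the Hippo list to pass without the block. Of 26 measured, 1 fell (0.184% of all genes did) and none rose, with a median of -0.05 against 0.0206 over all genes. The list was chosen with earlier results of these data known, so its counts of calls show no excess. The paralogue Mob1b differed by -0.14 ± 0.11. The kinases Lats1 and Lats2 differed by -0.07 ± 0.09 and -0.18 ± 0.13. Yap1 was 0.24 ± 0.14 higher, and none of these 4 passed in either fit. Wwtr1, which encodes TAZ, differed by -0.63 ± 0.16 (adjusted p = 0.20), and Amotl2, an angiomotin that binds YAP, by -0.59 ± 0.18 (0.354). With the replicate block both of these fell (0.012 and 0.0221), as did 0.694% of all genes. The other Wwtr1 probe sets differed by only -0.15 and -0.28 and passed in neither fit. Ccn1, Ccn2 and Ankrd1, commonly used as readouts of YAP activity, differed by 0.12 ± 0.36, -0.30 ± 0.55 and 0.03 ± 0.56.

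Cap1, the cyclase-associated protein that binds actin, had signals of 7.72, 7.69 and 7.77 in the control arrays and 6.80, 6.56 and 6.64 in the knockdown arrays. The difference, -1.06, was large beside the spread within these 6 arrays, yet it did not pass in the fit of all 15 arrays (SE 0.40, adjusted p = 0.531) or with the replicate block (0.251). That fit takes its spread from all 5 groups, and the wild-type IRE1a arrays had an SD of 1.26 for Cap1. In a fit of the 6 hairpin arrays alone its SE was 0.11 and it passed (adjusted p = 0.0427), 1 of 5 genes to do so, with Ern1, Mob1a, 9530068E07Rik and Dntt. With the replicate block added to those 6 arrays no gene passed, Cap1 included (0.0669). The second Cap1 probe set differed by -1.28. None of the 25 other genes of actin dynamics measured passed in either fit of all 15 arrays.

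Falls of 2-fold or more took in several unrelated functions. Mal2, a membrane protein of the transcytosis route by which hepatocytes deliver cargo to the bile face, went from 9.27, 9.76 and 9.05 to 7.79, 8.14 and 7.98. It fell by 1.39 ± 0.21 (adjusted p = 0.00924), the largest fall after Ern1 among the genes called without the block. Dctd, the deaminase that makes dUMP for thymidine synthesis, went from 6.49, 6.90 and 7.10 to 5.67, 5.60 and 5.66. The 3 knockdown values were nearly equal, below a wider control range, and it fell by 1.19 ± 0.15 (0.00293). Isoc1, an isochorismatase-domain protein, went from 9.49, 9.50 and 9.77 to 8.27, 8.35 and 8.63 and fell by 1.17 ± 0.12 (0.000272), with each of its 4 probe sets past the threshold.

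Regulators of transcription were also among the falls. Taf11, a subunit of the general factor TFIID, went from 8.73, 8.84 and 8.80 to 7.54, 7.56 and 7.92 and fell by 1.12 ± 0.12 (adjusted p = 0.000702). Tfcp2l1, a CP2-family transcription factor, went from 7.10, 7.49 and 7.31 to 5.99, 6.14 and 6.24 and fell by 1.18 ± 0.16 (0.00562). Hbp1, an HMG-box repressor, fell by 0.91 ± 0.17 (0.0451). The uncharacterised 9530068E07Rik, one of the brightest genes called, went from 11.12, 11.05 and 10.98 to 9.91, 9.82 and 9.97 and fell by 1.15 ± 0.11 (0.000246). Hmga2-ps1, annotated as a pseudogene, fell by 1.24 ± 0.23 (0.0451), and its probes may share signal with the parent gene.

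Herpud2, a relative of the ER degradation gene Herpud1, went from 9.81, 9.77 and 10.02 to 8.65, 8.63 and 9.20 and fell by 1.04 ± 0.16 (adjusted p = 0.0134). The third knockdown array was the least reduced. Cyrib, which binds the small GTPase RAC1, fell by 1.00 ± 0.10 (0.000386), and Rai14, an actin-associated protein, by 0.98 ± 0.14 (0.00651). Ifngr2, a chain of the interferon gamma receptor, fell by 0.87 ± 0.12 (0.00384), and Tnpo1, a nuclear import receptor, by 0.78 ± 0.11 (0.00815). Cbl, an E3 ubiquitin ligase for receptor tyrosine kinases, fell by 0.73 ± 0.13 (0.033). The other Tnpo1 probe sets differed by -0.28 and 0.13, and those of Cbl by -0.18 and -0.24. None of these other probe sets passed in either fit. Cyrib, Rai14, Ifngr2, Hbp1, Tnpo1 and Cbl were picked for their known roles after the values were seen. The remaining falls ran from -0.94 (Tmem123) to -0.52 (Abhd4).

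Dntt was the largest rise among the genes called without the block. It encodes terminal deoxynucleotidyl transferase, the template-free polymerase that adds bases at the joints of antibody and T cell receptor genes in lymphocyte precursors. Its signal was 5.15, 5.03 and 5.20 in the control arrays and 6.21, 6.49 and 6.64 in the knockdown arrays. It rose by 1.32 ± 0.11 (2.49-fold; adjusted p = 0.000105), and its second probe set by 1.43. Both groups lay below the median control signal of all genes, 7.33. The other 20 nuclear DNA polymerase genes measured did not pass in either fit.

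Lymphocyte and neutrophil markers were dim in the same arrays. Of 11 tested, 10 were higher in the knockdown group (54.9% of all genes were) and none passed, with a median difference of 0.14. Their lead came mostly from pair 2: the list's median difference was 0.04, 0.43 and -0.0043 in pairs 1, 2 and 3. The B cell markers Cd79a and Ms4a1 had control means of 5.10 and 4.82 and differed by 0.11 ± 0.14 and 0.21 ± 0.17. For all 11 markers the log2 of the summed signal was 8.84 to 8.91 in the control and 8.90 to 9.15 in the knockdown arrays. The part of lymphocytes and neutrophils in the Dntt difference was not tested.

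The 7 other rises were of enzymes, transporters and surface proteins. Bche, which encodes butyrylcholinesterase, a liver enzyme secreted to plasma, had signals of 8.14, 8.05 and 8.11 in the control arrays and 8.83, 8.75 and 9.03 in the knockdown arrays. It rose by 0.77 ± 0.09 (adjusted p = 0.00175). Alpl, tissue-nonspecific alkaline phosphatase, went from 6.65, 7.08 and 5.98 to 7.68, 7.72 and 7.44, a rise of 1.04 ± 0.20 (0.0454), and its control arrays were more spread than its knockdown arrays. The carnitine importer Slc22a5 rose by 0.78 ± 0.13 (0.0212) and the organic cation exporter Slc47a1 by 0.64 ± 0.10 (0.0179). Pcdh9, a protocadherin, rose by 0.82 ± 0.15 (0.0451). Aspa, which splits N-acetylaspartate, rose by 0.69 ± 0.13 (0.0451), and the growth factor receptor Fgfr2 by 0.55 ± 0.10 (0.0398).

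The replicate block added 2 more large rises that the rule for named genes takes in. Myb, a transcription factor of proliferating progenitors, had signals of 5.35, 5.13 and 7.27 in the control arrays and 6.83, 8.15 and 7.75 in the knockdown arrays. The third control array lay inside the knockdown range, and the difference of 1.66 ± 0.47 passed with the block (adjusted p = 0.035) but not without it (0.292). Necab1, a calcium-binding protein, had a difference of 1.39 ± 0.42 (0.00356 with the block, 0.336 without). The largest fall with the block, Igfbp3, was named after its values were seen. It had signals of 11.06, 9.69 and 9.23 in the control arrays and 9.48, 7.77 and 8.28 in the knockdown arrays, so that the groups overlapped while each pair differed in the same direction (-1.49; adjusted p = 0.00354 with the block and 0.504 without).

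**Figure D2:**
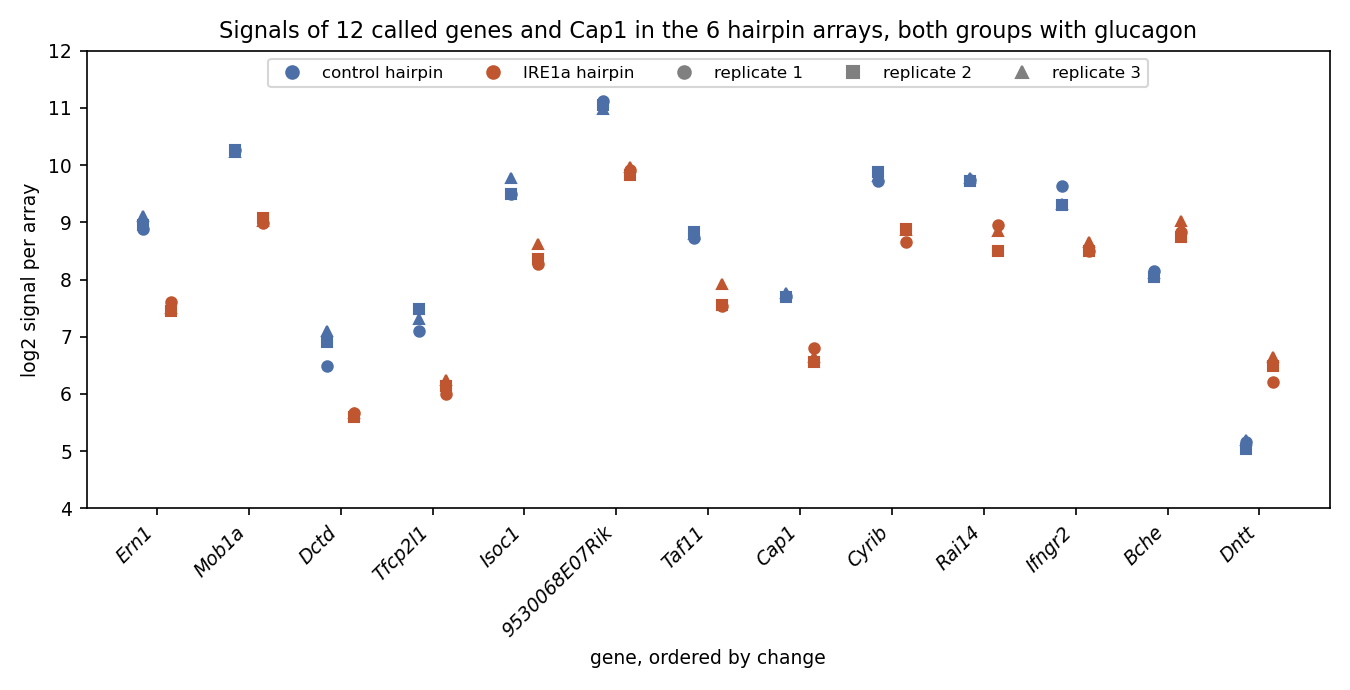
Log2 signal (y axis) in each of the 6 arrays for Cap1 and the 12 genes that passed in every fit that left out 1 hairpin array (x axis), in blue for the control hairpin and orange for the IRE1a hairpin, with a marker shape for each replicate number. The 2 colours do not overlap in any gene shown; of the genes shown, Ern1 has the largest fall (-1.47) and Dntt the largest rise (1.32).

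Of the 38 genes, 12 passed in each of the 6 fits that left out 1 hairpin array: Ern1, Mob1a, Dntt, Isoc1, Taf11, Dctd, Tfcp2l1, Cyrib, Rai14, Ifngr2, Bche and 9530068E07Rik. Mal2 was lost without the first knockdown array (adjusted p = 0.0656), Tnpo1 without the second (0.0526), and Herpud2 without either (up to 0.0891). The other 23 were lost in at least 3 of the 6 fits. Of the 24 called genes with more than 1 probe set tested, 21 had all their probe sets in 1 direction and 7 had more than 1 past the threshold.

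None of the genes that IRE1a is best known to control passed. Xbp1, whose array signal is total transcript and not its spliced form, was 12.51, 12.31 and 12.15 in the control arrays and 12.34, 12.09 and 12.29 in the knockdown arrays. The groups overlapped, and the difference was -0.08 with a 95% interval from -0.32 to 0.16. Hspa5, which encodes the main ER chaperone BiP, differed by -0.04 (-0.27 to 0.19). Dnajb9, a chaperone induced by spliced XBP1, differed by 0.15 (-0.28 to 0.58). Sec61b, a subunit of the ER translocation channel, was lower in each pair and differed by -0.25 (-0.51 to 0.01). With the block its interval ran from -0.47 to -0.03, and it did not pass in either fit. Manf and Sdf2l1, stress-induced ER proteins, differed by -0.14 ± 0.11 and -0.22 ± 0.26, and Edem1, a degradation factor, by -0.09 ± 0.14.

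Neither of the other sensors of ER stress, Atf6 (0.03 ± 0.18) and Eif2ak3, which encodes PERK (-0.15 ± 0.23), passed. Downstream of PERK, the transcription factors Atf4, Ddit3 and Atf3 differed by 0.07 ± 0.12, -0.31 ± 0.19 and 0.04 ± 0.45, and the ATF4 targets Trib3 and Fgf21 by -0.27 ± 0.18 and -0.17 ± 0.51. None of the 29 genes of the PERK, ATF4 and CHOP list passed. Hgsnat, reported as a transcript that IRE1a can cut, differed by 0.12 ± 0.10. Of 24 reported decay substrates, 13 were higher (54.9% of all genes were) and 11 lower, and none passed. Pmp22 alone rose with the replicate block (0.56), as did 0.534% of all genes.

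As a group, ER genes lay slightly lower in the knockdown arrays without any passing. Translocation and exit, chaperones, ER-associated degradation and N-glycosylation were represented by 130 genes, of which 99 (76.2%) were lower, against 45.1% of all genes tested. Their median difference was -0.10, with medians of -0.0993, -0.16 and -0.0158 in pairs 1, 2 and 3, against 0.0157, 0.0323 and -0.0115 over all genes. Pair 3 thus differed little from all genes. In 50 of them (38.5%, against 17.4% of all genes) all 3 pairs were lower. Magt1, a subunit of the oligosaccharyltransferase, fell with the replicate block (-0.58; adjusted p = 0.0367, and 0.111 without). Under quantile normalisation 93 of the 130 were lower and under median centring 102. In the other arm the same 130 genes had a median difference of 0.667 between wild-type IRE1a and EGFP.

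**Figure D3:**
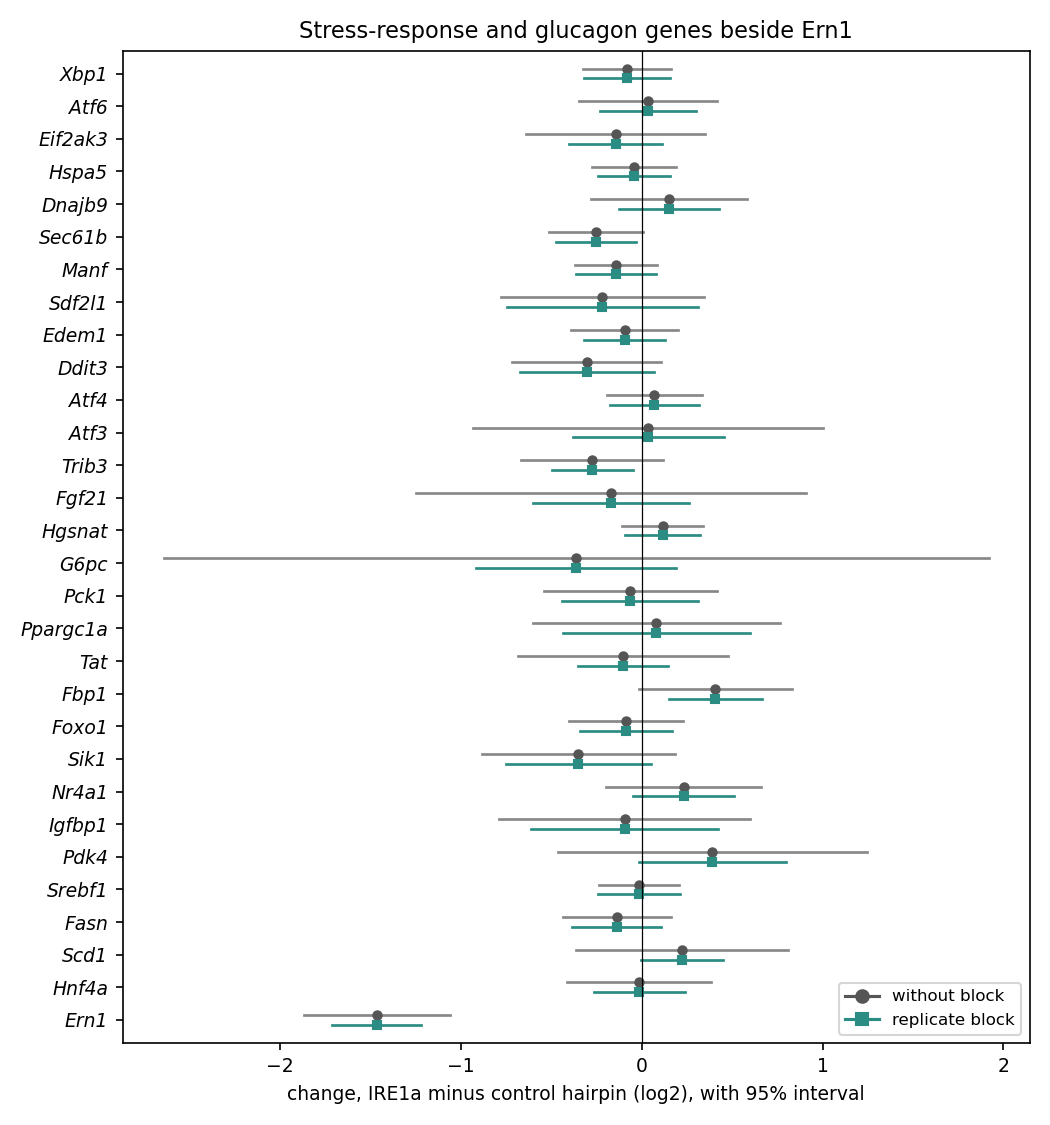
Change in log2 units (x axis) with its 95% interval for 29 genes of the stress and glucagon responses and for Ern1, in grey for the fit without a block and green for the fit with the replicate block. The Ern1 interval lies from -1.87 to -1.06 without the block. The intervals of the other genes without the block include 0, and that of G6pc is the widest. With the block the intervals, which are not adjusted over genes, exclude 0 for Sec61b, Trib3 and Fbp1, none of which passed.

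Genes that respond to IRE1a in the other direction were examined through the overexpression arm, which shares no arrays with the knockdown. Of 103 genes raised at least 2-fold by both the wild-type and the S724A protein, 70 (68.0%) were lower in the knockdown arrays. Their median difference was -0.10, against 1.34 for wild-type IRE1a over EGFP, and pair 3 had a median of 0.07 with the opposite sign. Of 61 genes lowered at least 2-fold by both proteins, 30 were lower and 31 higher. The difference between the knockdown effect and the wild-type effect passed for 677 genes (4.15%). It did so for 31 of the 38 called here, whose own change is part of that difference. Over all genes the 2 effects had a Pearson correlation of -0.12 and a Spearman correlation of -0.15, a description across genes, which are not independent replicates.

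Glucose-making genes were high and showed no passing difference. Pck1, the rate-controlling carboxykinase of gluconeogenesis, was 12.42, 12.83 and 12.57 in the control arrays and 12.66, 12.17 and 12.80 in the knockdown arrays. The ranges overlapped and the difference was -0.06 (95% interval -0.54 to 0.42). Its mean in the EGFP arrays was 5.36, but virus, infection time and hormone all differ between the arms and cannot be told apart. Ppargc1a, the co-activator that fasting induces, differed by 0.08 (-0.60 to 0.76).

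G6pc, whose enzyme releases free glucose, was 11.26, 11.44 and 11.32 in the control arrays and 11.24, 11.05 and 10.65 in the knockdown arrays. All 3 knockdown arrays lay below the controls, the first only just. The difference of -0.36 had an SE of 1.07 in the fit of 15 arrays and of 0.16 in the 6 hairpin arrays alone, and passed in neither (adjusted p = 0.952 and 0.822). Fbp1, another gluconeogenic enzyme, was 0.41 ± 0.20 higher and higher in each pair (0.138 with the block). Of 23 genes of gluconeogenesis and glucose output, 16 were higher (54.9% of all genes were), 7 lower and none passed.

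None of the 37 genes of the glucagon and CREB pathway passed without the block. In the knockdown arrays 26 (70.3%) were lower, against 45.1% of all genes, with a median of -0.04 against 0.0206. Under quantile normalisation 19 (51.4%) were lower, against 42.9% of all genes. With the replicate block 1 of the 37, Egr1, fell, against 0.694% of all genes. Egr1, an immediate early transcription factor, went from 10.70, 11.01 and 11.13 to 9.95, 10.13 and 10.12, and its difference of -0.88 ± 0.25 passed with the replicate block (adjusted p = 0.0264) and not without it (0.27). Sik1, the kinase that CREB induces and that restrains it, differed by -0.35 ± 0.25. Nr4a1, another CREB target, differed by 0.23 ± 0.20. The glucagon receptor gene Gcgr differed by 0.32 ± 0.14. Tat, Foxo1, Igfbp1 and Pdk4, fasting-response genes, differed by -0.10 ± 0.27, -0.09 ± 0.15, -0.10 ± 0.32 and 0.39 ± 0.40.

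Promoter sequence was read for the genes that fell, because CREB and spliced XBP1 bind related letters. The search covered both strands from 250 bases before to 50 bases after each annotated start (RefSeq, GRCm38.p6). The full cyclic AMP response element, TGACGTCA, reads the same on both strands. It shares its first 6 letters with the XBP1 core, TGACGTGG, and a match to one is never a match to the other. Among genes called without the block it was present in 2 of the 26 falls with a promoter in the table (7.69%) and in none of the 7 rises. With the block it was in 3 of 92 falls (3.26%) and none of 68 rises, against 2.03% of 27025 genes. The 2 were 9530068E07Rik (chr11:52396399-52396436, plus strand) and Taf11 (chr17:27907750-27907787, minus strand), shown with the element in capitals because both also fell more than 2-fold. The element starts 14 bases before the start site in the first and 28 before it in the second.
9530068E07Rik: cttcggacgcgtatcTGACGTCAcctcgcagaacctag
Taf11: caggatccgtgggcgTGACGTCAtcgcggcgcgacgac

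The XBP1 core was in no promoter of the genes called without the block, in 1 of the 92 falls with it (Ro60), in 0.714% of all genes and in 8 of the 107 ER genes with a promoter (7.48%). Txndc5, a protein disulfide isomerase, has it at chr13:38528030-38528067 (minus strand), and Sec24d, a coat protein of vesicles that leave the ER, at chr3:123267455-123267492 (plus strand). They are shown, with the core in capitals, as ER genes that carry it. All 8 had differences below 0, from -0.31 ± 0.19 (Txndc5) to -0.0054 ± 0.14 (Sec24d), and none passed in either fit. Of the 130 ER genes as a whole, 99 (76.2%) were below 0, so the sign does not set these 8 apart. These matches describe letters, not bound sites.
Txndc5: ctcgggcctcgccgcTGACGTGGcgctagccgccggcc
Sec24d: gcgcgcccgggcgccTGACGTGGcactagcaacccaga

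Lipid, detoxification and growth genes gave calls only with the replicate block, with which 0.534% of all genes rose and 0.694% fell, and 54.9% of all genes were higher. Of 32 genes of fatty acid and triglyceride synthesis, Lpin3, a lipin phosphatase, and Elovl2, an elongase of polyunsaturated fatty acids, rose with the block (0.77 and 0.43). Cidea, a lipid droplet protein, fell with it (-0.55). Fasn, Scd1 and Srebf1, main genes of fat synthesis, differed by -0.14 ± 0.14, 0.22 ± 0.27 and -0.02 ± 0.10. Of 26 genes of fatty acid oxidation 22 were higher, with a median of 0.22, and none passed in either fit.

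Of 31 genes of xenobiotic metabolism, 4 rose with the block (0.534% of all genes), including the glucuronyl transferases Ugt2b34 (1.12; adjusted p = 0.00192) and Ugt2b35 (0.81; 0.0355) and the cytochrome Cyp2b10 (0.78; 0.0474). The Ugt2b genes are close paralogues whose probes may share signal. Without the block the same 3 had adjusted p-values of 0.199, 0.619 and 0.411. Of 31 cell cycle genes 27 were higher (54.9% of all genes), with a median of 0.35. Of the 31, 2 rose with the block (0.534% of all genes): Ccne2, a cyclin of DNA replication (1.05), and Rrm2, a ribonucleotide reductase subunit (0.95). Their lead came from pairs 1 and 2: the list's median difference was 0.46, 0.74 and -0.17 in pairs 1, 2 and 3. Of 19 circadian genes 15 were lower (45.1% of all genes were), with a median of -0.10. Clock, the transcription factor at the core of the rhythm, fell with the block (-0.65, adjusted p = 0.0195, and 0.119 without). The other Clock probe sets differed by -0.14, 0.03 and -0.04 and passed in neither fit.

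**Figure D4:**
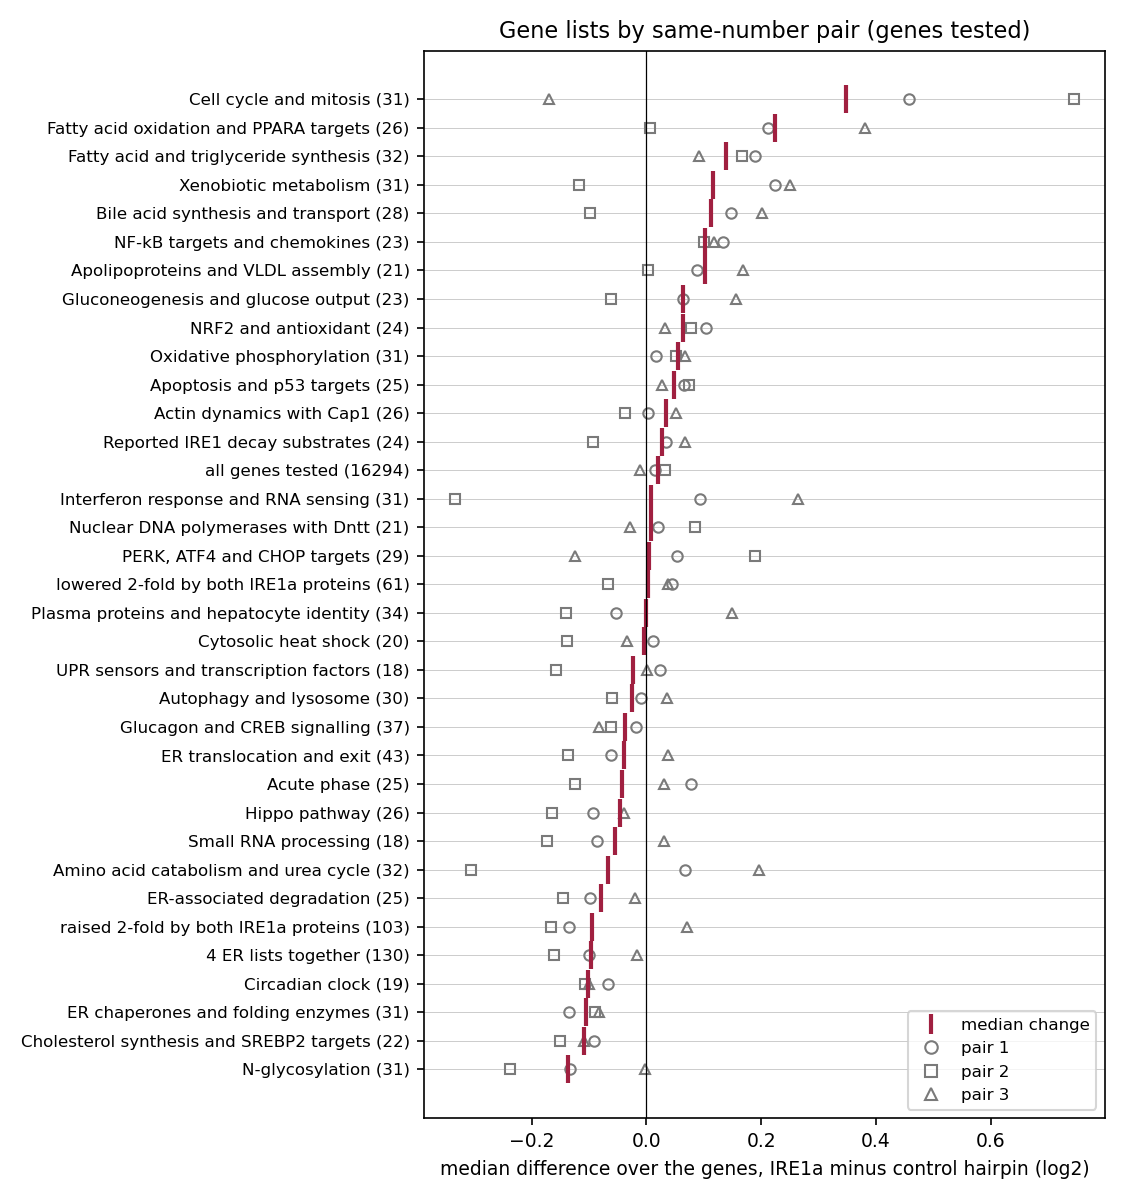
Median difference in log2 units (x axis) over the genes tested of each list (number in parentheses), as a red bar for the group difference and open markers for the 3 same-number pairs. Cell cycle genes have the highest median, 0.35, with pair 3 on the other side of 0 at -0.17, and the group medians of the 4 ER lists lie left of 0, while pair 3 lies at 0.0372 for ER translocation and exit and at -0.0027 for N-glycosylation.

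Of 38 lists of hepatocyte functions and cell types, 35 had no member past the threshold and 25 had none with the replicate block. Their 881 tested members held 3 calls (0.341%, against 0.233% of all genes) and, with the block, 21 (2.38%, against 1.23%). The 3 were Ern1, Mob1a and Dntt. The lists were chosen with earlier results of these data known, so these shares are not independent of the calls and show no excess. Lists without a call in either fit included the interferon response, acute phase proteins, oxidative phosphorylation, autophagy and the cytosolic heat shock genes. For the 12 hepatocyte markers the log2 of the summed signal was 16.42 to 16.65 in the control arrays and 16.39 to 16.60 in the knockdown arrays. Macrophage markers summed to 11.31 to 11.83 and 11.75 to 12.09. Of the 12 tested, 11 were higher in the knockdown arrays (54.9% of all genes were) and none passed. Their median difference was 0.085, 0.357 and -0.026 in pairs 1, 2 and 3. The Kupffer cell markers Clec4f and Vsig4 had control means of 5.24 and 4.20. Stellate and fibroblast markers summed to 10.89 to 11.93 and 10.79 to 11.58, endothelial markers to 9.999 to 10.02 and 9.96 to 10.51, and cholangiocyte markers to 9.49 to 10.55 and 10.19 to 10.83. The part of these cells in the calls was not tested.

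The 5 groups together place these levels. In 26 of the 30 genes that fell without the block the knockdown group had the lowest mean of the 5 groups, and in 20 the control hairpin group had the highest. Over all genes these shares were 16.2% and 19.5%, and a low knockdown mean and a high control mean both helped to select the 30. For the 113 falls with the block the order was turned: the knockdown group was lowest in 62 and the control hairpin group highest in 81. Mob1a averaged 9.98, 10.14 and 10.14 with EGFP, wild-type and S724A IRE1a, close to its control hairpin mean of 10.25 and well above its knockdown mean of 9.03. Ern1 averaged 8.97, 9.09 and 9.42 in the same 3 groups, so its probe set was not higher by more than its spread where wild-type IRE1a had been added (SD 0.39 with EGFP).

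In 3 of the 8 genes that rose without the block the knockdown group had the highest mean, and in 5 the control hairpin group had the lowest (16.3% and 26.4% of all genes). For the 87 rises with the block the counts were 29 and 71. Dntt averaged 6.59 with EGFP, near its knockdown mean of 6.44, and 5.60 and 5.72 with wild-type and S724A IRE1a. The Dntt difference between the knockdown and the wild-type effect was 2.30 (adjusted p = 2.48e-06), and that of Mob1a was -1.39 (1.14e-05). The knockdown change for which each gene was called is part of that difference, so these values are not separate support. The knockdown mean was nearer the EGFP mean than the control hairpin mean was in 6 of the 8 rises and 13 of the 30 falls. With the block it was nearer in 71 of the 87 rises and 75 of the 113 falls, against 63.2% of all genes.

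**Figure D5:**
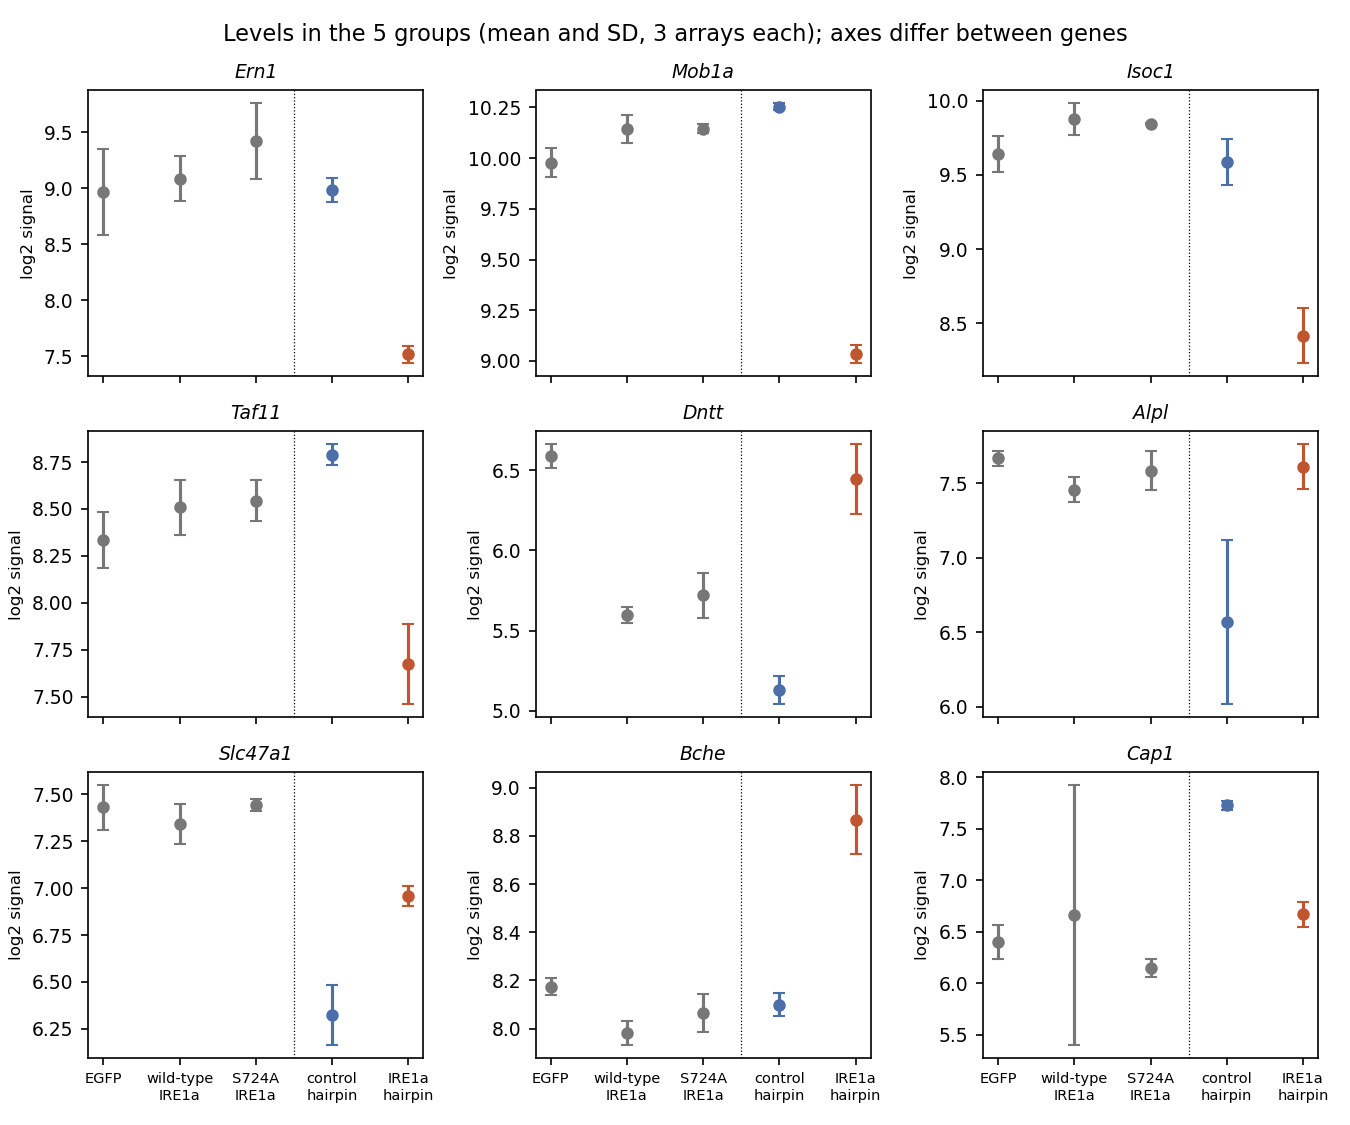
Mean log2 signal (y axis, scaled for each gene) with SD over 3 arrays in the 5 groups (x axis) for 9 genes; a dotted line separates the overexpression arm from the hairpin arm, where both groups received glucagon. Mob1a is lowest in the IRE1a hairpin group (9.03), Dntt is lowest in the control hairpin group, and Cap1 has its widest SD with wild-type IRE1a.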

How the data were processed

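Total RNA of 15 mouse hepatocyte samples, 3 in each of 5 groups, was measured on oligonucleotide arrays. The deposited values are log2 signals that the authors made with GCRMA, per the submitters' processing notes which record no version of it. GCRMA corrects background, so differences between dim signals depend on that correction. It also normalises the arrays it is given jointly, so a real shift of all genes among them would be removed. Whether all 15 arrays were normalised together is not stated. Array counts limit the precision, since no read depth exists.

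Of 45101 probe sets, 64 controls were left out, 34945 carried 1 gene symbol (34741 matched to the GRCm38.p6 gene table), 932 several and 9160 none; only the first kind was named. The probe set of highest mean stood for each of 18193 genes, and 16294 with a signal of 4 or more in at least 3 arrays were tested. Contrasts were fitted with limma 3.58.1 (R 4.3.3) over all 15 arrays and 5 groups (10 residual degrees of freedom), with Benjamini-Hochberg adjustment and a threshold of 0.05; the same code was tested on simulated data. The labels do not name the animals. The design text speaks of independent experiments without tying numbers to them, so p-values measure the spread between these samples, which may in part be technical. Deviations were taken from each group's own mean, which ties positive correlations of same-numbered arrays to negative ones of unlike numbers. The latter are thus not a separate check. Deviations of same-numbered hairpin arrays correlated at 0.686, 0.327 and 0.386 (unlike numbers -0.404 to -0.0243). Those of the 9 same-numbered overexpression pairs correlated at 0.204 to 0.539. The numbers were therefore taken as pairs from the data, and the replicate block (6 residual degrees of freedom) is given where it changes a call.

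Genes were named by a rule. It took in Ern1, Mob1a, Dntt and Cap1, and a core of stress and glucagon genes. It added the 10 largest changes in each direction with groups apart (rises filled from the replicate block). It also added up to 3 genes of each list with several calls. Exceptions are stated where they occur or here. Egr1, Clock, Magt1 and Pmp22 were named outside the rule, each as the sole call of its list with the replicate block. Some uncalled list members, the promoter examples, Tmem123 and Abhd4 were also named outside it. Bloc1s1, in the core, was not tested. The members, the lists and the rule were chosen with earlier results of these data known. The alternatives were other normalisations, filters, probe choices and variance priors, the block, the 6 hairpin arrays alone, and leaving out each of the 6 hairpin arrays; the 9 overexpression arrays were not left out in turn.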

Additional observations from a re-analysis of the deposited data

How the results depend on the processing

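All 38 calls kept their direction under every alternative that could test them, but their number moved. With the replicate block, 87 genes rose, 113 fell and the difference from the wild-type effect passed for 1816 genes. In the 6 hairpin arrays alone 1 rose and 4 fell, and with the replicate block added to these 6 none passed, while 1927 genes had an unadjusted p under 0.05 (limma); Ern1, at -1.47, then had an adjusted p of 0.0669, which was the lowest of any gene, against 0.00022 to 0.0279 under its other alternatives. Quantile normalisation gave 18 rises, and median centring 3 rises with 20 falls. Leaving out 1 hairpin array gave 2 to 37 rises, 11 to 38 falls and 448 to 831 differences from the wild-type effect; the most rises came without the third control array, and the fewest falls without the second knockdown array. As an alternative chosen after seeing the data, the replicate block without replicate 2 gave 44 rises, 35 falls and 1146 differences, without replicate 3 it gave 169, 162 and 2033, and without replicate 1 it gave 9, 20 and 860. The mean of a gene's probe sets put Ern1 at -0.56 (adjusted p = 0.0258). Other filters, priors and probe choices kept both counts within 1.5 times, but the genes behind the counts moved more. The mean of probe sets kept 24 of the 38 calls and median centring kept 23. Among those lost with the mean of probe sets were 9530068E07Rik, Rai14 and Tfcp2l1, which had passed in every fit that left out 1 hairpin array.

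Uncalled genes with differences near 0 changed sign in places, and the cause was not tested. Hnf4a turned to 0.0062 with quantile normalisation, 0.0458 with the mean of probe sets and 0.019 with gene-specific probe sets first; Srebf1 turned to 0.0392 with quantile normalisation and Hspa5 to 0.00973 with the mean of probe sets. Leaving out 1 array gave ranges across 0 for Atf3 (-0.15 to 0.28), Atf4 (-0.0693 to 0.16), Atf6 (-0.12 to 0.18), Dnajb9 (-0.0761 to 0.41), Edem1 (-0.20 to 0.0131), Eif2ak3 (-0.35 to 0.12), Fgf21 (-0.57 to 0.24), Foxo1 (-0.17 to 0.0533), Hnf4a (-0.15 to 0.14), Hspa5 (-0.14 to 0.0846), Igfbp1 (-0.16 to 0.0029), Pck1 (-0.19 to 0.12), Pdk4 (-0.0287 to 0.77), Ppargc1a (-0.27 to 0.32), Scd1 (-0.13 to 0.52), Srebf1 (-0.074 to 0.0472) and Xbp1 (-0.17 to 0.0126). The number of arrays sets the limit: the median gene's 95% interval reached 0.296 log2 units on either side of its change, and 0.256 with the block.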
